A study of Mus musculus with 17 samples.

Results

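St3gal5 encodes GM3 synthase, the sialyltransferase that starts ganglioside synthesis, and it is described here with the enzymes that act before and after it in mouse ovarian follicles. The group was taken by gene symbol and holds 9 genes: St3gal5, Ugcg, B4galt5, B4galt6, B4galnt1, St8sia1, B3galt4, Gm2a and Hexa. Of these, 8 had a row among the 25198 rows of the count table, and Gm2a was not analysed here. St3gal5 was picked for its rise in these same libraries, so its treatment values are a description with no test. The other genes were taken for their place in the pathway, with earlier results of these data already known.

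The libraries are bulk RNA-seq of antral follicles from CD1 mice, labelled as 16 days old, grown for 8 days in eIVFG, an encapsulated in vitro follicle growth system. There are 11 Control and 6 Tyrphostin libraries, each from 3 follicles. Per the labels, Tyrphostin follicles had been given hCG, which acts in place of the ovulatory surge of LH, together with 10 µM Tyrphostin-AG1478, a blocker of the EGF receptor kinase, in DMSO for 4 h. The treatment text is the same for all samples, so whether Control follicles received hCG and DMSO is not stated. The labels number 2 batches without saying what they are: batch 1 holds 6 Control and 3 Tyrphostin libraries, and batch 2 holds 5 and 3. Whether libraries of 1 group come from separate animals or cultures is not stated, so p-values measure the spread between these libraries, which may be in part technical.

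As background, gangliosides are glycolipids that carry sialic acid, and they sit mainly in the outer leaflet of the plasma membrane. Ceramide receives glucose from Ugcg and then galactose from B4galt5 or B4galt6, which gives lactosylceramide. St3gal5 adds the first sialic acid to make GM3. From GM3, St8sia1 makes GD3, B4galnt1 makes GM2 and GD2, and B3galt4 extends these to GM1 and GD1b. In the lysosome, Hexa, the alpha subunit of beta-hexosaminidase, removes the terminal sugar of GM2 with the help of the activator protein encoded by Gm2a. GM3 is also known as a lipid that can damp signalling by the EGF receptor.

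St3gal5 lies on chromosome 6 (GRCm38 72097592 to 72154571, plus strand, ENSMUSG00000056091.12) in GENCODE M21, the annotation used for positions and lengths here. Hexa lies on chromosome 9 (59539540 to 59565109), Ugcg on chromosome 4 (59189257 to 59222833) and B4galt5 on chromosome 2 (167298444 to 167349183). An antisense gene, 4933431G14Rik, overlaps St3gal5 but shares 0 exonic bases with it. Hexa shares 255 exonic bases with Tmem202 on the other strand, B4galnt1 shares 715 with Slc26a10, and St8sia1 shares 149 with Gm7457. Strand use in the counting is not given in the sources used here, so reads in those stretches cannot be told apart.

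The sequence before the St3gal5 start is shown because this gene carries the main change, and that of B4galt5 because this enzyme makes the substrate of St3gal5 and its level did not go the same way. RefSeq's promoter table (GRCm38.p6) held 7 of the 9 genes. Printed are the bases before the start in both RefSeq and GENCODE: chr6:72097358-72097591, plus strand, for St3gal5 and chr2:167349184-167349428, minus strand, for B4galt5. Capitals mark matches, on either strand, to 10 motifs searched: TGACGTCA (cyclic AMP response element), TGACG (its first part, which any full element also matches), TGANTCA (AP-1), CAAGGTCA (NR5A), GGGCGG (GC box), GCGGGGGCG (EGR), TTGCNNAA (C/EBP), GTAAACA (FOXO), TGTGGT (RUNX) and CACGTG (E-box).
St3gal5: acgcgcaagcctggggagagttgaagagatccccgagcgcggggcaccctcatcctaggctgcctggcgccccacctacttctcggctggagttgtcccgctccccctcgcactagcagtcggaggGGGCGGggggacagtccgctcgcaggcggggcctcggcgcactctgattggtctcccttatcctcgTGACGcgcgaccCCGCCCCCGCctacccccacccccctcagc
B4galt5: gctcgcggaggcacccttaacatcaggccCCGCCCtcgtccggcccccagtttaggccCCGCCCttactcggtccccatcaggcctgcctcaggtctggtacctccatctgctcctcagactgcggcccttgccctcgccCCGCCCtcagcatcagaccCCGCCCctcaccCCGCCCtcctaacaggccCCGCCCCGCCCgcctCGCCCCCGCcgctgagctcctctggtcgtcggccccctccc

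Counted from the RefSeq start, St3gal5 holds GC boxes at -124 and -46, an EGR match at -45 that overlaps the second GC box, and TGACG at -58. B4galt5 also holds an EGR match, at -46, and GC boxes that begin at -221. Over the 250 bases before the start, 2.57% of 32851 RefSeq promoters hold the EGR letters, 17.8% hold TGACG and 32.7% hold the GC box. These matches describe letters in the windows shown and say nothing of binding.

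Total counts ran from 1820545 to 8291024 in Control libraries and from 3077632 to 7451417 in Tyrphostin libraries. Ptgs2 and Dusp6, an ovulatory gene and a feedback target of the ERK kinases, fell by 2.40 ± 0.24 and 2.05 ± 0.22 on the log2 scale (SE; edgeR adjusted p = 5.33e-07 and 1.88e-06), with 6 of 6 Tyrphostin libraries below every Control library. That order, every Tyrphostin library below every Control library, was found for 1% of the 9603 genes tested. Granulosa markers Inha, Inhba and Gja1 were abundant, while Amh and Foxl2 reached at most 4 and 30 counts in any library. Of the 9 granulosa markers, 7 were tested and edgeR called 4 of these higher (Cyp19a1, Hsd17b1, Nr5a2 and Fshr), where it called 10.6% of all genes. The 3 most abundant were not called: Inha, Inhba and Gja1 had log2 fold changes of -0.05, -0.07 and 0.34. The list held 7.96% to 10.2% of counts in Control and 9.37% to 11.5% in Tyrphostin libraries (permuting libraries inside each batch, exact and two-sided, gave p = 0.00468, or 0.0187 after adjustment over 4 marker lists). Theca and stroma markers (9 of 9 measured) held 0.0234% to 0.218% and 0.0299% to 0.372% of counts, with an exact permutation p of 0.595. Endothelial and immune markers (8 of 8) held 0.00421% to 0.052% and 0.00374% to 0.105% (exact permutation p = 0.702), and oocyte markers (9 of 9) held 0.00161% to 0.0083% and 0.00192% to 0.0224% (exact permutation p = 0.162). No marker was at 0 in all libraries. Tyrphostin libraries had 1.55% to 2.5% of counts in mitochondrially encoded genes in batch 1 and 0.781% to 1.32% in batch 2, and the group difference was -0.48% of counts (-0.4% in batch 1 and -0.56% in batch 2), whose part in the results was not tested. A library stands apart in each group: Control 7 had 0.175% of counts in mitochondrially encoded genes against 1.74% to 2.83% in the other Control libraries, and Tyrphostin 5 had the highest theca, stroma, endothelial and immune shares.

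St3gal5 had the highest level per length of the synthesis genes in both groups, and it was raised in all inhibitor-treated libraries. In Control libraries it ran from 20.8 CPM (the count scaled to library size, with TMM factors) through a median of 30.5 to 34.9, with a mean of 29.5 ± 4.66 (SD, n = 11). In Tyrphostin libraries of batch 1 it stood at 271.6, 129.7 and 208.6 CPM, and in batch 2 at 124.3, 150.7 and 257.4 CPM, with a mean over both of 190.4 ± 64.9 (SD, n = 6). The groups do not overlap: the lowest Tyrphostin library (Tyrphostin 4) lay well above the highest Control library (Control 2). The fitted log2 fold change with batch as a term was 2.68 ± 0.18 (SE), a 6.43-fold higher level and rank 3 of 9603 genes tested. Within batch 1 the log2 fold change was 2.83 ± 0.24 (SE), and within batch 2 it was 2.54 ± 0.26 (SE). As this contrast chose the gene, none of these values is a test. The granulosa marker share was also higher in Tyrphostin libraries, by 1.46% of counts (batch 1: 1.64%, batch 2: 1.28%). This share is of total counts, and on the TMM scale its members went both ways, as given above. Its part in the St3gal5 values and in those of the other genes that rose was not tested.

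**Figure D1:**
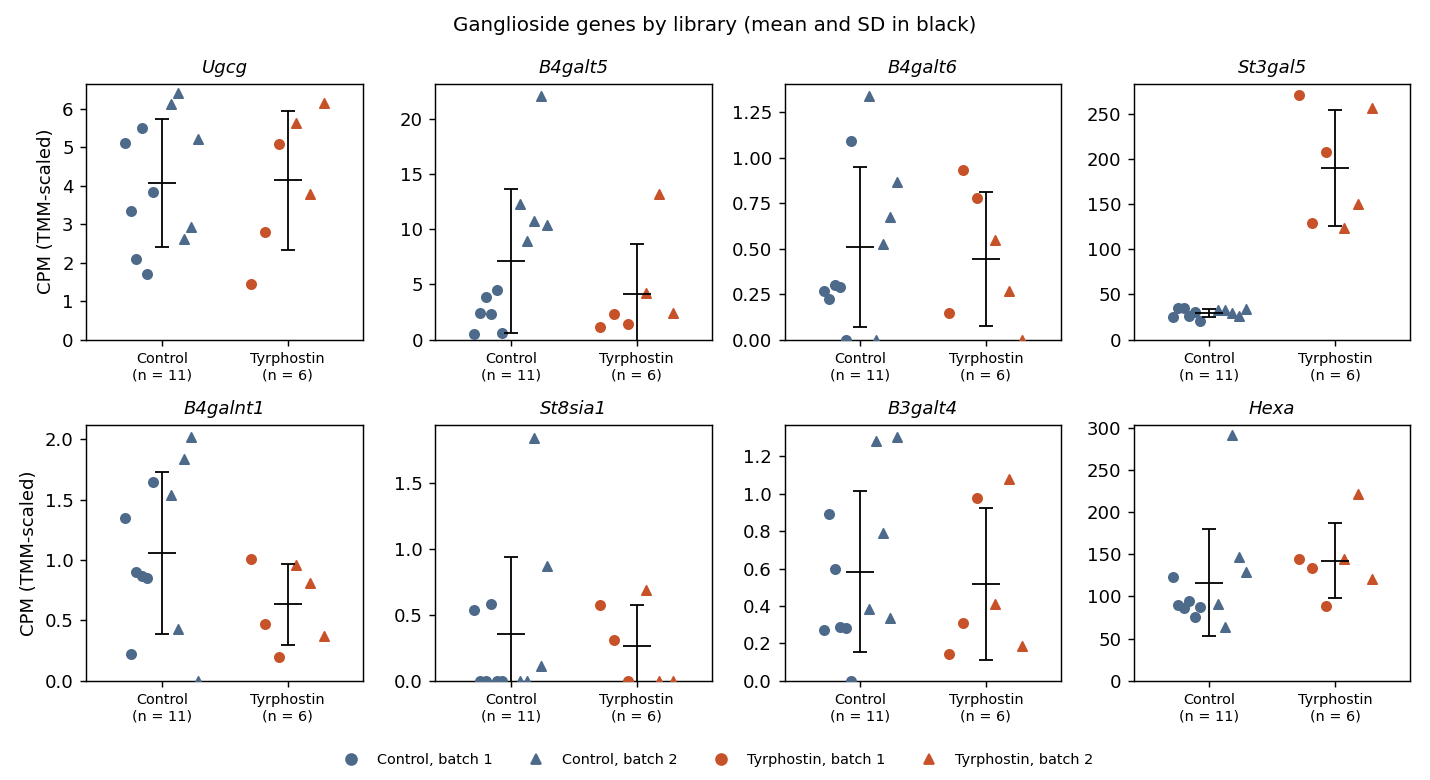
Level of each measured ganglioside gene in each library, in TMM-scaled CPM on a linear axis from 0, with circles for batch 1, triangles for batch 2, and the mean and SD of each group in black. The 6 Tyrphostin libraries for St3gal5 sit between 124.3 and 271.6 CPM, all above the highest Control value of 34.9, and the groups of the other genes overlap.

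The spread of St3gal5 within the Control group also bears on how consistent the rise looks, so it too is a description. The coefficient of variation over the 11 Control libraries was 15.8%, against a median of 37.1% over all genes tested, and 2.9% of genes varied less. Control libraries of batch 2 (30.7 ± 3.21 CPM, SD, n = 5) and of batch 1 (28.6 ± 5.73 CPM, SD, n = 6) differed by a log2 value of 0.12 ± 0.19 (SE).

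The genes that supply lactosylceramide did not share this pattern. Ugcg, glucosylceramide synthase and the first committed step, ran from 1.69 to 6.4 CPM (median 3.83) in Control and from 1.43 to 6.15 CPM (median 4.42) in Tyrphostin libraries. Both ranges nearly coincide. The log2 fold change was -0.02 ± 0.31 (SE, edgeR adjusted p = 0.981), at counts of 6 to 41 a library. An approximate 95% interval, built from the SE by the normal distribution and not from the F test, ran from -0.62 to 0.58. The sign of the log2 fold change varied with the scaling and the filter (0.12 with total counts).

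B4galt5, a lactosylceramide synthase, ran from 0.539 to 22.1 CPM (median 4.51) in Control and from 1.15 to 13.2 CPM (median 2.38) in Tyrphostin libraries. The groups overlap, and the wide span in Control follows the batches. All 5 Control libraries of batch 2 (8.97 to 22.1 CPM) lay above all 6 of batch 1 (0.539 to 4.51 CPM), an order found for 3.41% of genes tested. The log2 difference between Control batches was 2.42 ± 0.35 (SE; edgeR adjusted p = 1.64e-09), from the fit with no filter on low counts, where 5.85% of 20697 genes were called and 3.2% were higher in batch 2. B4galt5 did not reach the filter of the main Control comparison, with 1 to 16 counts in batch 1 and 24 to 197 in batch 2. That filter takes all Control libraries as 1 group, so it can leave out genes that are low in 1 batch.

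Under the inhibitor, the log2 fold change of B4galt5 was -0.85 ± 0.38 (SE; edgeR unadjusted p = 0.0372, adjusted p = 0.177), with -0.58 ± 0.6 in batch 1 and -1.03 ± 0.51 in batch 2 (SE), neither past the threshold by edgeR. With 1 library left out, the batch 1 value ran from -0.93 (without Tyrphostin 2) to -0.32 (without Control 5) and the batch 2 value from -1.95 (without Tyrphostin 5) to -0.62 (without Tyrphostin 6). In batch 1 the Tyrphostin libraries stood at 1.15, 2.33 and 1.37 CPM, inside the Control range of that batch. In batch 2 they stood at 4.25, 13.2 and 2.42 CPM, and 2 of these 3 were below all Control libraries of the batch. The exception, Tyrphostin 5, held 0.372% of counts in theca and stroma markers and 0.105% in endothelial and immune markers, the highest of all libraries; without it the log2 fold change was -1.25 (edgeR adjusted p = 0.0571). The Control library highest for B4galt5, Control 8, also had the highest theca and stroma share of its group (0.218%), and the part of these shares in the B4galt5 values was not tested beyond 1 fit with the theca and stroma share as a covariate (log2 fold change -0.98, edgeR adjusted p = 0.0832). In bulk samples, fewer cells of a type and less RNA per cell cannot be told apart. The gene passed the threshold with limma-voom (-1.19, adjusted p = 0.0456) and without Control 6, Control 7 and Tyrphostin 5 (-1.37, edgeR adjusted p = 0.0235). It was not called by DESeq2 (-0.83, adjusted p = 0.149) or with any 1 library left out, the value nearest 0 being -0.61 without Tyrphostin 6 (edgeR adjusted p = 0.397). B4galt6, the second lactosylceramide synthase, had at most 7 counts in any library.

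The members that act after St3gal5 in synthesis were near the detection limit. B4galnt1, the GM2 and GD2 synthase, had 0 to 18 counts in Control libraries (53 in all) and 1 to 7 in Tyrphostin libraries (23 in all). St8sia1, the GD3 synthase, had 0 to 7 counts and was at 0 in 6 of 11 Control and 3 of 6 Tyrphostin libraries. B3galt4, which makes GM1 from GM2, had 0 to 6 and 1 to 5 counts. All 3, and B4galt6, were below the filter, so 4 of the 8 measured genes were tested. A floor of 3 counts corresponds to 0.336 to 1.64 CPM in Control and 0.412 to 0.809 CPM in Tyrphostin libraries, for counting error only. Control B4galnt1 averaged 1.06 ± 0.671 CPM (SD, n = 11) and Tyrphostin B4galnt1 averaged 0.635 ± 0.336 CPM (SD, n = 6), a difference not detectable at this depth (edgeR with no filter, log2 fold change -0.67 ± 0.6, SE, adjusted p = 0.593).

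Hexa, the lysosomal member, was the most abundant of the group in Control follicles. It ran from 63.8 CPM through a median of 90.7 to 291.4 in Control and from 89.2 through 139.2 to 221.8 in Tyrphostin libraries. The groups overlap. The log2 fold change was 0.29 ± 0.23 (SE; edgeR adjusted p = 0.501), with 0.4 ± 0.22 in batch 1 and 0.18 ± 0.42 in batch 2 (SE). The highest Control value belonged to Control 7 and the highest Tyrphostin value to Tyrphostin 5. The same pair stood out for other glycosphingolipid degradation and general lysosomal genes. Of 25 such genes tested, Hexa included, Control 7 was the highest Control library for 12. Tyrphostin 5 was the highest Tyrphostin library for 13. Between Control batches Hexa differed by a log2 value of 0.65 ± 0.29 (SE; edgeR adjusted p = 0.146), and by 0.26 without Control 7. Between Control batches, edgeR called 14% of the 6680 genes that reached the filter of that comparison. The treatment value of Hexa was 0.49 without Control 7 (edgeR adjusted p = 0.0761), and the batch 2 value was -0.13 without Tyrphostin 5 and -0.04 without Control 11.

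Of the 3 genes tested besides St3gal5, 0 passed the threshold by edgeR (1 at an unadjusted p under 0.05), 0 by DESeq2 and 1 by limma-voom. Over all genes, 10.6% of 9603 were called by edgeR, 4.35% higher and 6.25% lower. Within batch 1 and within batch 2, edgeR called 6.73% and 0.621% of all genes, and none of these 3. For no member other than St3gal5 did the groups stand clear of each other, in either direction. Over all genes, 0.51% had every Tyrphostin library above every Control library, and 1% had every Tyrphostin library below. The interaction of treatment and batch was past the threshold for 0 of these 3 genes by edgeR, with 0 at an unadjusted p under 0.05, where 3.56% of all genes stood.

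Per length of exon, St3gal5 stood well above the enzymes before and after it in synthesis. In Control follicles the order was Hexa (58.2 ± 31.6 CPM per kb, SD, n = 11), St3gal5 (11.3 ± 1.78), B4galt5 (1.66 ± 1.52), Ugcg (0.783 ± 0.32), B3galt4 (0.369 ± 0.273), B4galnt1 (0.306 ± 0.194), B4galt6 (0.0874 ± 0.0759) and St8sia1 (0.0383 ± 0.0621). Hexa stood above St3gal5, and St3gal5 above B4galt5, in 11 of 11 Control libraries and with no overlap of their ranges, while from B4galt5 down each neighbouring pair overlapped. In Tyrphostin libraries St3gal5 (72.7 ± 24.8 CPM per kb, SD, n = 6) and Hexa (71.4 ± 22 CPM per kb) changed places within their spread, St3gal5 being higher in 3 of 6 libraries. B4galt5 (0.957 ± 1.06) and Ugcg (0.795 ± 0.347) followed far below.

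**Figure D2:**
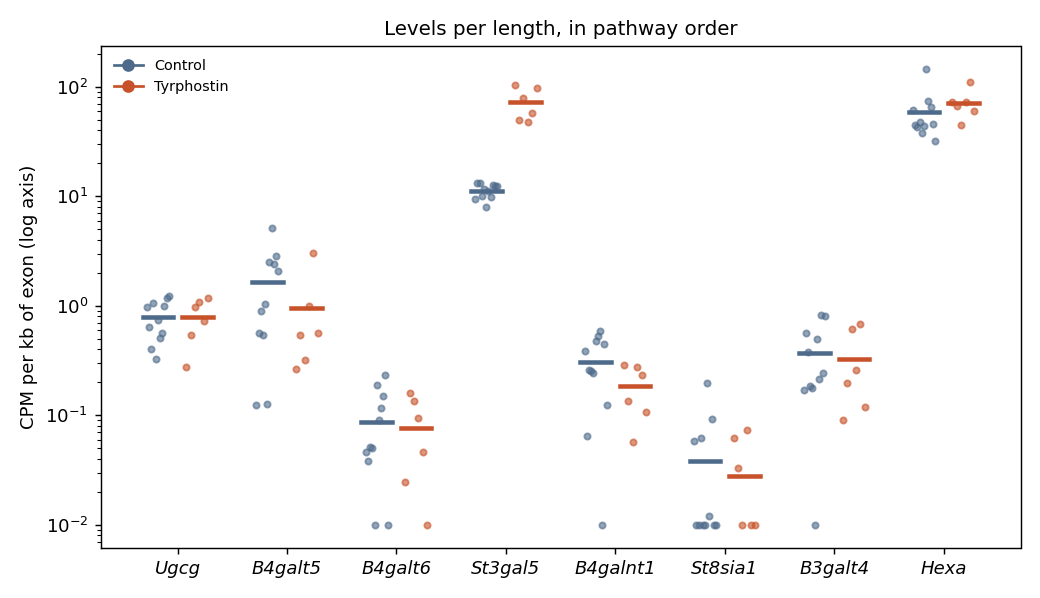
Level per kb of exon on a log axis for the 8 measured genes, ordered as the pathway runs; points are libraries, bars are group means, and libraries at 0 are drawn at 0.01. St3gal5 and Hexa stand above the others, and in Tyrphostin libraries St3gal5 (mean 72.7) reaches the level of Hexa (mean 71.4).

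Among 20 sialyltransferase genes, St3gal5 held a larger share in Tyrphostin than in Control libraries. It held rank 3 per length in 11 of 11 Control libraries, behind St3gal4 and St6gal1, which sialylate chiefly glycoproteins. Its share of the summed sialyltransferase level per length was 7.41% ± 1.29 (SD, n = 11) in Control, with a range of 5.66% to 9.37%. In Tyrphostin libraries the share was 25.8% ± 7.42 (SD, n = 6), from 17.8% to 38.9%, and St3gal5 ranked second in 5 of 6 libraries. These shares rest on the contrast that chose the gene and carry no test.

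**Figure D3:**
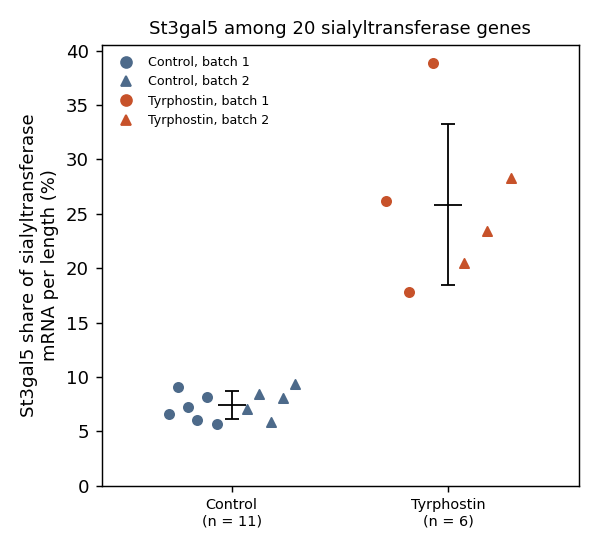
St3gal5 as a percentage of the summed level per length of 20 sialyltransferase genes in each library, with the mean and SD of each group in black. Control libraries lie between 5.66% and 9.37% and Tyrphostin libraries between 17.8% and 38.9%.

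Of these other sialyltransferases, St3gal4 also rose. It ran from 140.3 through 239.8 to 355.7 CPM in Control and from 283.3 through 476.5 to 692.3 CPM in Tyrphostin libraries, and 5 of 6 Tyrphostin libraries lay above every Control library. The log2 fold change was 1.07 ± 0.2 (SE; edgeR adjusted p = 0.00107), with 1.15 in batch 1 and 0.99 in batch 2. St6gal1, which caps N-glycans with sialic acid, was at -0.49 ± 0.19 (log2 fold change and SE; edgeR adjusted p = 0.108). St3gal6 and St8sia4 had values of -0.71 ± 0.38 and -1.21 ± 0.47 (SE), neither past the threshold with edgeR. St8sia4 was called lower by DESeq2 and by edgeR without Control 6, Control 7 and Tyrphostin 5. The St3gal5 rise and the St3gal4 rise differed in size by the values given, 6.43-fold against 2.1-fold; the difference was not tested, since it would use the contrast that chose St3gal5.

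Of the glycosyltransferases that act elsewhere on gangliosides, 4 of 9 were tested and 0 were called by edgeR, against 10.6% of all genes (1 at an unadjusted p under 0.05; DESeq2 and limma-voom each called 1, St3gal3). St3gal2, which sialylates GM1 and GD1b, had a value of -0.09 ± 0.32 (SE), and St3gal1 one of -0.67 ± 0.33 (log2 fold change and SE). St3gal3 had 0.95 ± 0.36 (SE; edgeR adjusted p = 0.094).

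Branches that compete with St3gal5 for lactosylceramide, or for ceramide before it, held 6 genes, and B3galnt1 alone reached the filter. It encodes globoside synthase, which acts on globotriaosylceramide, and it ran from 57.5 through 69.5 to 112.3 CPM in Control and from 96.2 through 161.8 to 240.5 CPM under the inhibitor. With 4 of 6 Tyrphostin libraries above every Control library, B3galnt1 rose by a log2 value of 1.03 ± 0.19 (SE; edgeR adjusted p = 0.00108), and 1.22 and 0.82 in batches 1 and 2. A4galt, the enzyme that starts that branch, reached at most 17 counts in any library, and B3gnt5, which starts the lacto series, at most 9.

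Of the ceramide synthesis genes, Cers6 fell and Ormdl3 rose. DESeq2 and total-count scaling also called Sptssa, a subunit of serine palmitoyltransferase, higher. Of 17 genes, 12 were tested and edgeR called 2, where it called 10.6% of all genes: 1 rose, 1 fell and 10 were not called, with a median log2 fold change of -0.03. Cers6, the ceramide synthase that prefers long-chain palmitoyl-CoA, fell from 101.8 through 411.1 to 642.1 CPM in Control to 73.1 through 175.2 to 231.4 CPM under the inhibitor. The fitted log2 fold change was -1.22 ± 0.25 (SE; edgeR adjusted p = 0.00244), near equal in batch 1 (-1.14) and batch 2 (-1.3), though 1 of 6 Tyrphostin libraries lay below every Control library. The lowest Control value was that of Control 7 (101.8 CPM). The next was 221.6 CPM (Control 8), still below the highest Tyrphostin value. Ormdl3, an inhibitor of serine palmitoyltransferase, averaged 22.9 CPM in Control (SD 8.79, n = 11) and 48.6 CPM under the inhibitor (SD 11.6, n = 6), and so rose by 1.08 ± 0.21 on the log2 scale (SE; edgeR adjusted p = 0.00158). Cers5, the most abundant of the list per length, had 919 ± 177 CPM in Control and 877 ± 334 CPM in Tyrphostin libraries (SD; log2 fold change -0.07 ± 0.19, SE).

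Supply of sialic acid and sugar nucleotides had 7 of 8 genes tested and 0 called by edgeR, DESeq2 or limma-voom, with 2 at an unadjusted p under 0.05 by edgeR and a median log2 fold change of 0.29. Against 10.6% of all genes, 0 of 7 says little about the list. Nans, sialic acid synthase, and Slc35a1, the CMP-sialic acid transporter of the Golgi, had log2 fold changes of 0.59 ± 0.21 and 0.55 ± 0.2 (SE; edgeR adjusted p = 0.0808 and 0.0791). Both were called with total-count scaling, and Nans also without Control 6, Control 7 and Tyrphostin 5. Ugp2, which makes UDP-glucose and was the most abundant per length, had 0.21 ± 0.21 (SE). Of 4 genes of ceramide and glycolipid transfer, 0 were called by edgeR (1 at an unadjusted p under 0.05). Plekha8, which carries glucosylceramide to its next enzyme, had 0.66 ± 0.23 (SE, edgeR adjusted p = 0.0697). It was called by DESeq2 and limma-voom, with total-count scaling, and without Control 6, Control 7 and Tyrphostin 5. Cptp, the most abundant of that list per length, had -0.04 ± 0.24 (SE).

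On the removal side, Neu1, the lysosomal sialidase, rose. It ran from 23.8 through 39.1 to 118.9 CPM in Control, the highest again being Control 7, and from 59.3 through 94.8 to 136.1 CPM in Tyrphostin libraries. The log2 fold change was 1.02 ± 0.22 (SE; edgeR adjusted p = 0.00354), with 0.94 in batch 1 and 1.12 in batch 2. Neu3, a membrane sialidase that acts on gangliosides, had 0.94 ± 0.44 (SE; edgeR adjusted p = 0.19). Of 10 glycosphingolipid degradation genes, 10 were tested and 0 were called by edgeR, DESeq2 or limma-voom, with 1 at an unadjusted p under 0.05 by edgeR, where 10.6% of all genes were called. Asah1, acid ceramidase, was at 0.61 ± 0.21 (log2 fold change and SE; edgeR adjusted p = 0.0672), and was called with total-count scaling and without Control 6, Control 7 and Tyrphostin 5. Psap, the saposin precursor and the most abundant of the list per length, was at 0.06 ± 0.19. Of 14 general lysosomal genes tested, edgeR called 1 higher and 0 lower, with a median log2 fold change of 0.25. Ctsl, a cathepsin protease and the most abundant of the list per length, had -0.53 ± 0.23 (SE; edgeR adjusted p = 0.161).

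Over all 9 pathway lists with 82 genes, 58 were tested and 6 (10.3%) were called by edgeR, 5 higher and 1 lower. This share is close to the 10.6% of all genes called by the same fit. The median log2 fold change was 0.15, against 0 over all genes tested. Scaling by total counts alone called 12 (20.7%; 11 higher, 1 lower), against 11.6% of all genes, and put the all-gene median at 0.15. DESeq2 called 10 (17.2%) against 13.7% of all genes, and limma-voom called 8 (13.8%) against 11.7%. Without Control 6, Control 7 and Tyrphostin 5, edgeR called 10 (17.2%) against 13.1%, and 10 were also called without Control 7 alone. Whether the list shares differ from those of all genes was not tested.

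**Figure D4:**
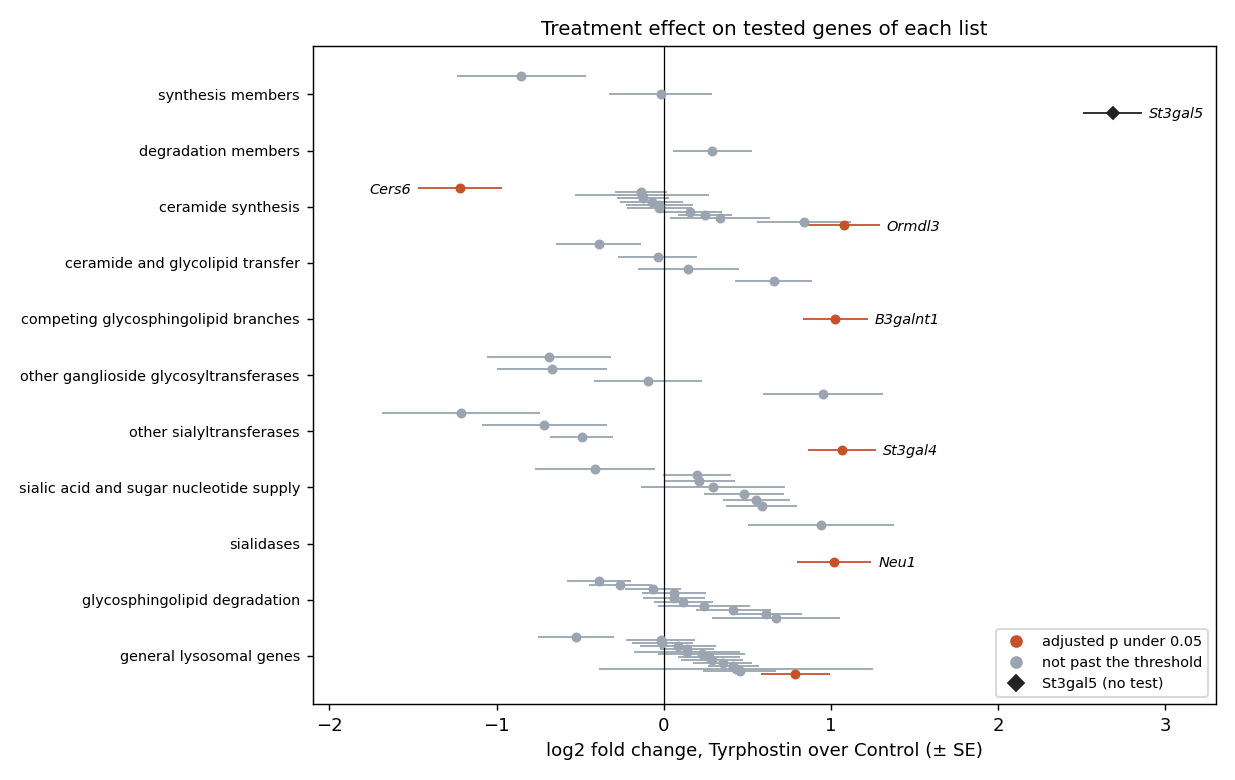
Fitted log2 fold change (Tyrphostin over Control, with SE) of each tested gene, grouped by list; orange marks an adjusted p under 0.05, grey the others, and the black diamond St3gal5, which has no test here. St3gal5 at 2.68 lies apart from all other genes shown, which run from -1.22 (Cers6) to 1.08 (Ormdl3).

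The genes with the pattern nearest to St3gal5 were sought over the 17 libraries, by the root mean square difference between log2 CPM profiles centred on each gene's mean. Nr5a2, the nuclear receptor LRH-1 of granulosa cells, was nearest at 0.442 log2 units, against a median of 1.38 over all genes. Its mean was 44.7 CPM in Control (SD 9.79, n = 11) and 202.3 CPM under the inhibitor (SD 36.3, n = 6). Cyp19a1, the aromatase that makes estradiol, followed at 0.559, then Kif26b (a kinesin family member) at 0.64, Dip2a at 0.668 and Hsd17b1, an estradiol-forming dehydrogenase, at 0.674. Nr5a2, Cyp19a1 and Hsd17b1 are also in the granulosa marker list. For all 5, 6 of 6 Tyrphostin libraries lay above every Control library. All of them share the gap between the groups and the same libraries, so the measure is a description. Within Control, Hsd17b1 ran from 18.9 to 123.8 CPM and Cyp19a1 from 60 to 285.4 CPM, while St3gal5 kept within 20.8 to 34.9 CPM.

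**Figure D5:**
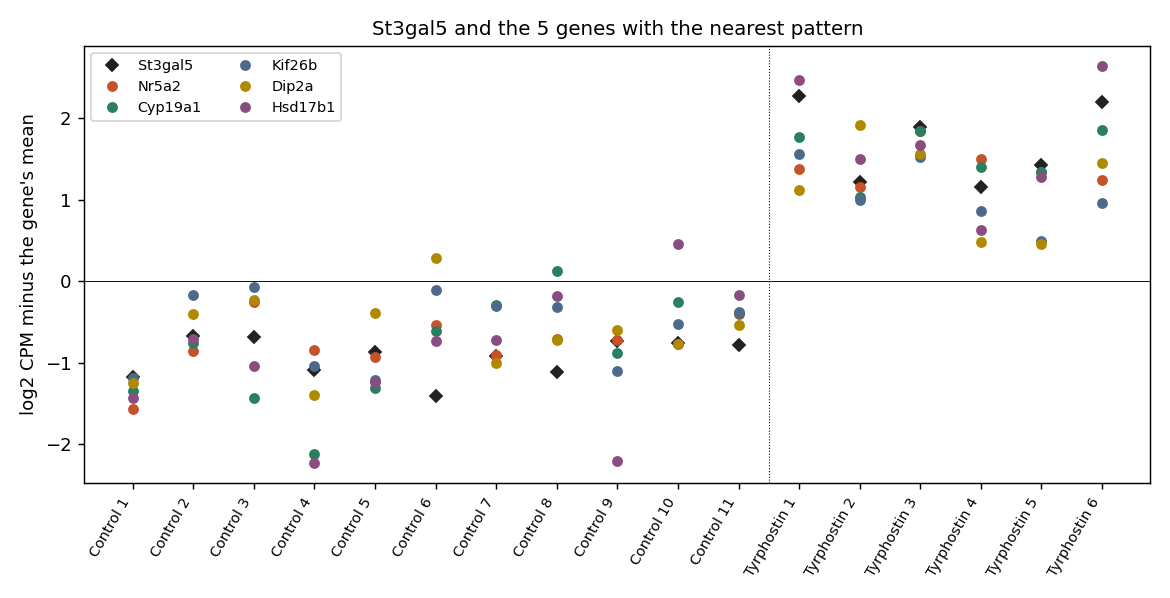
Log2 CPM minus the gene's mean over the 17 libraries for St3gal5 (black diamonds) and the 5 genes of nearest pattern, by library, with a dotted line between the groups. All 6 genes lie higher in the 6 Tyrphostin libraries, and the Control values of Cyp19a1 and Hsd17b1 scatter more than those of St3gal5.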

How the data were processed

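Counts per gene symbol for 17 libraries (1 table, unnormalized whole-number counts) were deposited by the authors. STAR, HTSeq and GRCm38 are named, without role or version, per the submitters' processing notes; annotation and strandedness are not given in the sources used here. Libraries were made by Smart-Seq2, per the labels' protocols, a method whose reads carry no molecular identifiers. Columns were matched to samples by the names in the labels, and 0 columns were left over. Within each group and batch, all 31 pairs of libraries were further apart than counting error allows (chi-square divided by its degrees of freedom, 11.8 to 84.1), so none is a copy.

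Genes were tested with edgeR 4.0.16 (R 4.3.3): filterByExpr, TMM scaling, robust glmQLFit and the quasi-likelihood F test, batch as a term, Benjamini-Hochberg adjustment over all genes tested, threshold 0.05. SE is the log2 fold change over the square root of F. On simulated counts for the treatment comparison (9409 genes), 65.5% of genes changed by a log2 value of 1 and 98.8% of those changed by 2 were recovered. These were 110 and 85 genes, and 6.02% of the genes called had not been changed. Unlike the data, the simulated counts held no batch difference. DESeq2 1.42.0, limma-voom (3.58.1), 3 other scalings (total counts, RLE, upper quartile), 2 other filters, no batch term, a replicate block, Control sets summed and omission of each library were alternatives. A fit without Control 6, Control 7 and Tyrphostin 5 and one with the theca and stroma share were added after seeing the data. CPM per kb uses the union of exons in GENCODE M21. Genes named were all members, called list genes (at most 3 a direction), each list's most abundant uncalled gene and the 5 nearest patterns; genes named beyond these (Nans, Slc35a1, Plekha8, St3gal2, St3gal3, St3gal6, St8sia4, A4galt, B3gnt5, Asah1, Sptssa) were chosen after their values were seen. Members and lists were chosen with earlier results of these data known. Col4a3bp was read for Cert1. Some list genes are counted in the lists but not reported here by name.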

Additional observations from a re-analysis of the deposited data

Results flagged for a closer look

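In 36 groups of 5 or 6 libraries (8 genes and 4 marker lists), 6 had a library far from the others. The rule used gives about 1.8 by chance if values are normally distributed and groups are independent. The groups share libraries, and the Tyrphostin group pools both batches, so 1.8 is a rough guide only. Control 8 was high for B4galt5 at 22.1 CPM, while its batch 2 neighbours spanned 8.97 to 12.3. Tyrphostin 5 was high for the same gene at 13.2 CPM, while the rest of its group spanned 1.15 to 4.25. Control 6 was high for B4galt6 at 1.09 CPM, which is 2 counts, with the rest of batch 1 at 0 to 0.299. Tyrphostin 5 held 0.372% of counts in theca and stroma markers (rest of the group 0.0299% to 0.116%) and 0.105% in endothelial and immune markers (rest of the group 0.00374% to 0.00748%). Control 1 held 0.013% in endothelial and immune markers, and the rest of batch 1 held 0.00421% to 0.00707%.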

How the results depend on the processing

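The log2 fold change of St3gal5 stayed between 2.54 and 2.8 with each library left out. The 1018 genes called for the treatment became 619 (237 higher, 382 lower) with no batch term, 624 (259 higher, 365 lower) with the replicate block and 708 (without Tyrphostin 1) to 1314 (without Control 7) with 1 library left out. Total-count scaling gave 715 higher and 396 lower, against 418 and 600. The replicate numbers do not pair the libraries: numbers 4 to 6 cross the batches, correlations of same-numbered libraries ran from 0.031 to 0.32, and 2 of 6 matched their own number best. On the same 12 libraries the fit with no block called 601. Under the block, Ormdl3 and B3galnt1 did not pass the threshold (edgeR adjusted p = 0.0998 and 0.0578), and B4galt5 was at -0.34 (edgeR adjusted p = 0.805).

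Of the 3 tested members besides St3gal5, limma-voom called 1, the fit without Control 6, Control 7 and Tyrphostin 5 (chosen after seeing the data) called 1, and leaving out 1 library gave 0 to 0. The 6 pathway genes called became 12 with total counts, 10 with DESeq2, 10 without those 3 libraries, and 5 (without Tyrphostin 2) to 10 (without Control 7) with 1 library left out. Ugcg, at -0.02, was 0.12 with total counts, 0.0085 with upper-quartile scaling, 0.025 with limma-voom, 0.021 with no filter, 0.018 with no batch term and -0.18 to 0.15 with 1 library left out. The cause was not tested.

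The 634 genes called within batch 1 became 394 (without Tyrphostin 2) to 687. The 61 within batch 2 became 222 with no filter, 303 with DESeq2, and 11 (without Tyrphostin 6) to 221 (without Control 7). The difference between batches was called for 0 genes (342 at an unadjusted p under 0.05 by edgeR), 79 with no filter and 0 with each library left out. The 937 genes that differed between Control batches became 1473 with DESeq2 and 637 to 1025 with 1 library left out. Within batch 2, Hexa ran from -0.13 (without Tyrphostin 5) to 0.596 (without Control 7). With 1 library left out, the difference in marker share (percentage points, Tyrphostin minus Control) ran from 1.23 to 1.75 for granulosa, -0.0196 (without Tyrphostin 5) to 0.051 for theca and stroma, -0.0082 (without Tyrphostin 5) to 0.0166 for endothelial and immune, and 0.000795 to 0.00544 for oocyte markers, the last with an exact permutation p of 0.0244 without Tyrphostin 4. At these depths, genes under 3 counts a library could not be compared.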
